A study of Mus musculus with 18 samples.

Results

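Cells that carried an shRNA against Esrrb were compared with themselves over time, at day 2 and at day 4. The comparison rests on 6 of the 18 arrays of the study, the 3 titled as Esrrb knockdown at day 4 and the 3 titled as Esrrb knockdown at day 2. The cells were E14, an established line of mouse embryonic stem cells, and total RNA of each sample was hybridised to 1 Illumina BeadChip array. Both knockdown groups had been transfected by lipofection with a pSUPER.puro plasmid that expresses a short hairpin RNA against Esrrb. The matching control cells, 3 arrays at each day, received the same kind of plasmid with an shRNA against GFP, a jellyfish protein with no mouse counterpart. Cells of all groups were kept on gelatin-coated dishes, and their medium held serum together with LIF, a cytokine that sustains self-renewal. Whether cells without plasmid were removed is not stated in the sources used here, and neither is the event from which the days were counted. All knockdown arrays carry 1 shRNA label, so loss of Esrrb and other effects of that hairpin cannot be told apart.

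Esrrb is an orphan nuclear receptor that binds DNA without a known hormone. In mouse embryonic stem cells it belongs to the network of transcription factors, with Nanog, Klf4, Tfcp2l1 and others, that holds cells in the naive pluripotent state. When that network is weakened, cells can take up programmes of the primed epiblast, of the trophectoderm or of other lineages. Keratins of simple epithelia and contractile actins mark some of these states.

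The values below are levels on the log2 scale after background correction and quantile normalization, so that a difference of 1 is a 2-fold change. A gene is said to have risen or fallen where the limma test of day 4 against day 2, with Benjamini-Hochberg adjustment over the 14520 genes tested, gave an adjusted p under 0.05. Such genes are also said to be called. The 3 arrays of a group are labelled biological replicates and lie on 3 different BeadChips. Groups kept 1 fixed position across BeadChips, and the effects of position and of group cannot be told apart. Replicates of the knockdown cells correlated at 0.994 to 0.9951 within day 2 and at 0.9957 to 0.9959 within day 4 across the tested genes, and at 0.986 to 0.9889 between the days. All 9 measured stem cell markers were detected on all 6 knockdown arrays. Their summed linear level was 31780 to 33600 at day 2 and 32280 to 32330 at day 4.

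The signal of a control probe named AMPR, by its name for the ampicillin resistance gene that cloning plasmids carry, fell between the days. It read 4059.2, 3665.6 and 4137.9 units of deposited intensity in knockdown cells at day 2. At day 4 it read 279.3, 354.4 and 330.6, so that the mean was 12.3-fold lower. In control cells the mean fell from 3494.67 to 255.8 units, or 13.7-fold. The day 2 and day 4 arrays did not overlap in either arm. Another 3 control probes, ALKPHOS, DTT7PRIMER_ANTISENSE and a beta-galactosidase probe, fell with it, and their means were 10.01-fold, 9.87-fold and 2.84-fold lower at day 4 in knockdown cells. The source of these signals was not tested, nor was the part that plasmid or transfection played in the gene changes below.

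Esrrb itself was low on both days in the knockdown cells. The 3 arrays gave levels of 11.12, 11.27 and 11.23 at day 2 and of 10.96, 10.98 and 11.08 at day 4, while control cells gave 13.39, 13.54 and 13.38 and then 13.71, 13.73 and 13.73. All knockdown arrays lay below all control arrays. From day 2 to day 4 Esrrb changed by -0.20 in knockdown cells (SE 0.11, n = 3 per day, limma adjusted p = 0.207), which did not pass although the arrays of the 2 days did not overlap. The changes below thus follow a day 2 level that was already below that of control cells. In these bulk samples fewer cells with a transcript and less of it per cell cannot be told apart.

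From day 2 to day 4 the knockdown cells changed in 2827 of 14520 genes (19.5%), of which 1574 rose (10.8%) and 1253 fell (8.63%). At least 2-fold changes were seen for 98 of the rises and 58 of the falls. The median size of a called change was 0.487, and the median standard error over all genes was 0.119. In 5427 genes (37.4%) the 3 arrays of day 2 did not overlap those of day 4. Among called genes 99.7% moved the same way on all 3 BeadChips, against 53.8% of all genes tested. The called genes were chosen by a test on these same arrays, so that share is no separate check of them. The share of rises moved with the scaling: with median centring in place of quantile normalization, 1506 genes rose and 643 fell, or 70.1% rises against 55.7%, and the median change over all genes was 0.041 in place of 0.003.

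Control cells changed over the same days too. They changed in 3399 genes (23.4%), of which 1881 rose (13.0%) and 1518 fell (10.5%), and 94 rises and 23 falls were at least 2-fold. Between the arms 797 genes rose in both and 474 fell in both, which is 45.0% of the knockdown calls and 37.4% of the control calls. Another 49 genes rose in knockdown cells and fell in control cells, and 38 did the reverse. Across all genes tested the changes of the arms correlated with Pearson's r = 0.542 and Spearman's rho = 0.48, as a description over genes that are not independent. The arms share no array, but they share the 3 BeadChips. A test of the difference between the arms called 699 genes (4.81%), 337 with a more positive change in knockdown cells (2.32%) and 362 with a more negative one (2.49%). With median centring these counts were 344 and 134. Of the named differences 13 lost their call with median centring, those of Vldlr, S100a1, Ak7, Ccnd3, Spry4, Lefty2, Foxa2, Gadd45a, Aldoc, Slc2a1, E2f2, Ccnd2 and Tcstv3. Those of Vldlr, Soga3, Bmp4 and Wnt8a lost it when all probes of the gene were averaged, and those of Wnt8a and Foxa2 without background correction.

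**Figure D1:**
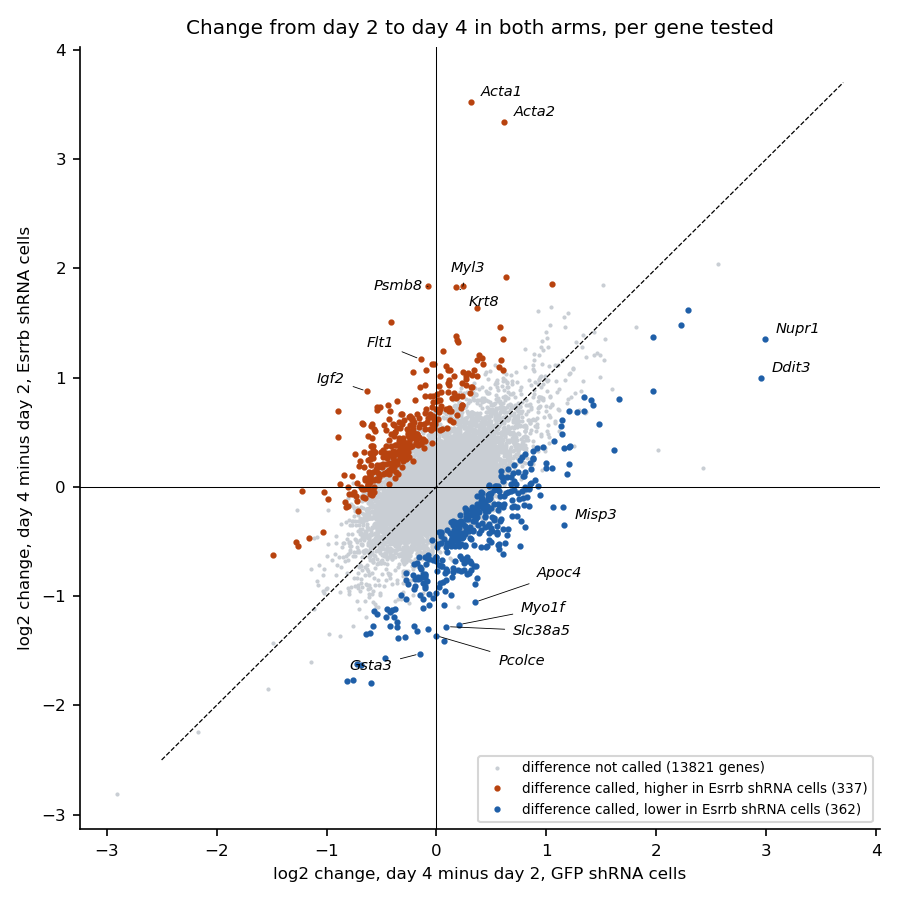
Log2 change from day 2 to day 4 of each of the 14520 genes tested, in GFP shRNA cells (horizontal) and in Esrrb shRNA cells (vertical), with the line of equal change dashed. Coloured points are the 337 and 362 genes whose change differed between the arms, and Acta1 and Acta2 lie at the top. The Acta1 point is a fitted value from day 2 arrays below detection, for which only a bound holds, and Acta2 stands at 3.34.

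The largest rises were those of 2 muscle actins. Acta1, the alpha actin of skeletal muscle, was not detected on any day 2 array (levels 4.76, 4.60 and 4.44) and stood at 8.21, 8.13 and 8.02 at day 4. That is at least an 8.40-fold rise over the detection floor (limma adjusted p = 1.97e-12), with control arrays at 4.39 to 4.48 and then 4.60 to 4.99. Acta2, the alpha actin of smooth muscle, went from 5.49, 6.07 and 5.73 to 9.02, 9.05 and 9.23, a rise of 3.34 (SE 0.15, 10.1-fold, adjusted p = 9.96e-12). The lowest day 4 array lay far above the highest day 2 array for both genes. In control cells Acta2 went from below detection to detection on 2 of 3 arrays, at least 1.20-fold higher, and Acta1 was below detection on both days. The changes differed between the arms by the test for Acta2 (adjusted p = 1.84e-07) and Acta1 (adjusted p = 7.35e-09), with no size given since these control arrays lay below detection. The other 2 probes of Acta2 sat near background and changed by 0.01 and 0.56, so the mean of its probes gave 1.30 (adjusted p = 3.89e-09).

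The muscle cytoskeleton list holds actins, tropomyosins and proteins that bind them, and 9 of its 17 tested members rose and 0 fell (52.9%, against 10.8% rises among all genes tested). The shares of all genes that rose (10.8%), fell (8.63%) or were called either way (19.5%) are the background for the counts of each list below. The list's median change was 0.34, against 0.003 over all genes and 0.04 for the same list in control cells, where 4 rose and 0 fell. In 5 members the probe was below detection at 1 or both days, and with those at their bound, or at 0 where none can be given, the median was 0.16. Cnn2, a calponin that binds actin filaments, moved from 8.19, 8.24 and 8.09 to 9.02, 9.07 and 9.28 (0.95, SE 0.12, limma adjusted p = 1.15e-05). Tpm2, a tropomyosin that lies along the actin filament, moved from 8.52, 8.56 and 8.63 to 9.43, 9.43 and 9.56 (0.90, SE 0.10, adjusted p = 1.54e-06). Neither gene's days overlapped. Myl9, Tpm1, Flna and Csrp1 rose by 0.57 to 0.68. Cald1 was called too, but it was below detection at day 2 and detected on 2 of 3 arrays at day 4, at levels that allow no fold. Tagln, Myh9, Lmod1, Vcl, Des, Actg2, Tagln2 and Actc1 did not pass. In 5 of the 17 members, Acta1, Acta2, Cnn2, Myl9 and Tpm1, the change was more positive than in control cells by the test of the difference, and in 0 it was more negative.

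The CArG box, the letter pattern that serum response factor binds in many actin and contractile genes, was searched in the RefSeq promoter windows (build GRCm38.p6, the bases around each annotated start). The search was added after the values were seen, and the pattern reads the same on both strands. It stood in 5 of 17 windows of the muscle cytoskeleton list (29.4%) and in 3 of 11 windows of its called members (27.3%). Of all windows of genes tested 171 of 11843 held it (1.44%), of windows of called rises 1.37% and of windows of called falls 1.45%. The 3 called members with a box are shown over the 250 bases before the start, 5′ to 3′ on the strand of the gene, with the box in capitals. Myl9, a regulatory light chain of smooth muscle myosin, was chosen for this after its values were seen (6.75, 6.81 and 6.24 at day 2 and 7.23, 7.21 and 7.08 at day 4, a rise of 0.57). The boxes begin 73 bases before the start in Acta1 (chr8:123894776-123895025, minus strand), 56 before it in Cnn2 (chr10:79988350-79988599, plus strand) and 161 before it in Myl9 (chr2:156775214-156775463, plus strand). Actc1 and Vcl, whose windows also hold a box, did not pass.
Acta1: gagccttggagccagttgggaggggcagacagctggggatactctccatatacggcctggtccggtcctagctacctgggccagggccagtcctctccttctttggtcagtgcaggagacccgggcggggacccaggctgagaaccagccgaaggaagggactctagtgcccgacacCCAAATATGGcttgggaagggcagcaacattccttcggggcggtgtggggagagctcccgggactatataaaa
Cnn2: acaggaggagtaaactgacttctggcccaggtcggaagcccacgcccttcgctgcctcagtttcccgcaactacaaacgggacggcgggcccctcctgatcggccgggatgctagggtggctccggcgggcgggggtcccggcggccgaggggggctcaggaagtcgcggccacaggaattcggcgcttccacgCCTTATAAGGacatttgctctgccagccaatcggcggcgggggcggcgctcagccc
Myl9: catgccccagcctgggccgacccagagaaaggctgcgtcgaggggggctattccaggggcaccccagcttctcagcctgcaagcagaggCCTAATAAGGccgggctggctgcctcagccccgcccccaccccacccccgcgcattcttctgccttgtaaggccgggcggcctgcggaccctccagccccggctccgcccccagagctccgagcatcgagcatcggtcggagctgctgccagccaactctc

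The same windows were searched for the motif of Esrrb itself. The letters AAGGTCA, on either strand, stood in 3.17% of windows of all genes tested, 2.74% of windows of rises and 3.09% of windows of falls. The longer TCAAGGTCA, which contains the shorter one, stood in 38 of 11843 windows (0.321%), in 2 of 1388 windows of rises (0.144%) and in 6 of 1101 windows of falls (0.545%). Among the genes named by rule, Sdhd alone held the longer motif. Windows this short leave out enhancers, where Esrrb binds at many genes.

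Keratins of simple epithelia rose with the actins. Krt18 stood at 7.84, 7.81 and 7.67 at day 2 and at 9.67, 9.58 and 9.82 at day 4 (1.92, SE 0.10, limma adjusted p = 1.3e-10). Its usual partner Krt8 went from 8.82, 8.84 and 8.85 to 10.76, 10.50 and 10.73 (1.83, SE 0.10), and Krt7 from 8.15, 8.08 and 8.01 to 9.96, 9.90 and 9.95 (1.86, SE 0.10). Days did not overlap for any of these, as the rule for the largest rises required. In control cells Krt7 rose by 1.05 and Krt18 by 0.63, while Krt8 was at 0.18 and did not pass. The changes were larger in knockdown cells by 1.65 for Krt8, 1.28 for Krt18 and 0.81 for Krt7 (adjusted p = 6.87e-07, 1.89e-05 and 0.00164).

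Further large rises came from genes of several kinds. Psmb8, an inducible subunit of the immunoproteasome, moved from 6.20, 5.72 and 6.53 to 8.08, 8.0 and 7.87 (1.83, SE 0.18, limma adjusted p = 3.58e-07), and was detected on 1 of 6 control arrays. Myl3, an essential myosin light chain of heart and slow muscle, moved from 5.30, 5.53 and 5.58 to 7.46, 7.09 and 7.36 (1.83, SE 0.14) and was detected on 0 of 6 control arrays. The chemokine gene Cxcl12 went from 7.11, 6.95 and 6.99 to 8.67, 8.67 and 8.62 (1.63, SE 0.17). For these 3 genes the change was more positive than in control cells (adjusted p = 9.76e-05, 6.67e-05 and 0.00335). Their days did not overlap, as the rule required. Ap1m2, an epithelial clathrin adaptor subunit, Pdzk1, a scaffold protein with PDZ domains, Ppm1h, a protein phosphatase, and Ly6g6e, of the Ly6 family, rose by 1.65, 1.59, 1.61 and 1.56. They also rose in control cells, by 1.04, 1.20, 0.93 and 1.16, and the differences between the arms did not pass (adjusted p = 0.0595, 0.0756, 0.0595 and 0.374). Vldlr, a lipoprotein receptor, and S100a1, a calcium-binding protein detected on 1 of 3 day 2 arrays, rose by 1.61 and 1.48, less than in control cells, where they rose by 2.29 and 2.22 (adjusted p = 0.00411 and 0.0355 for the differences). Without background correction the rises of Myl3, Ppm1h and S100a1 were 1.19, 1.03 and 0.82, and all kept their call.

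**Figure D2:**
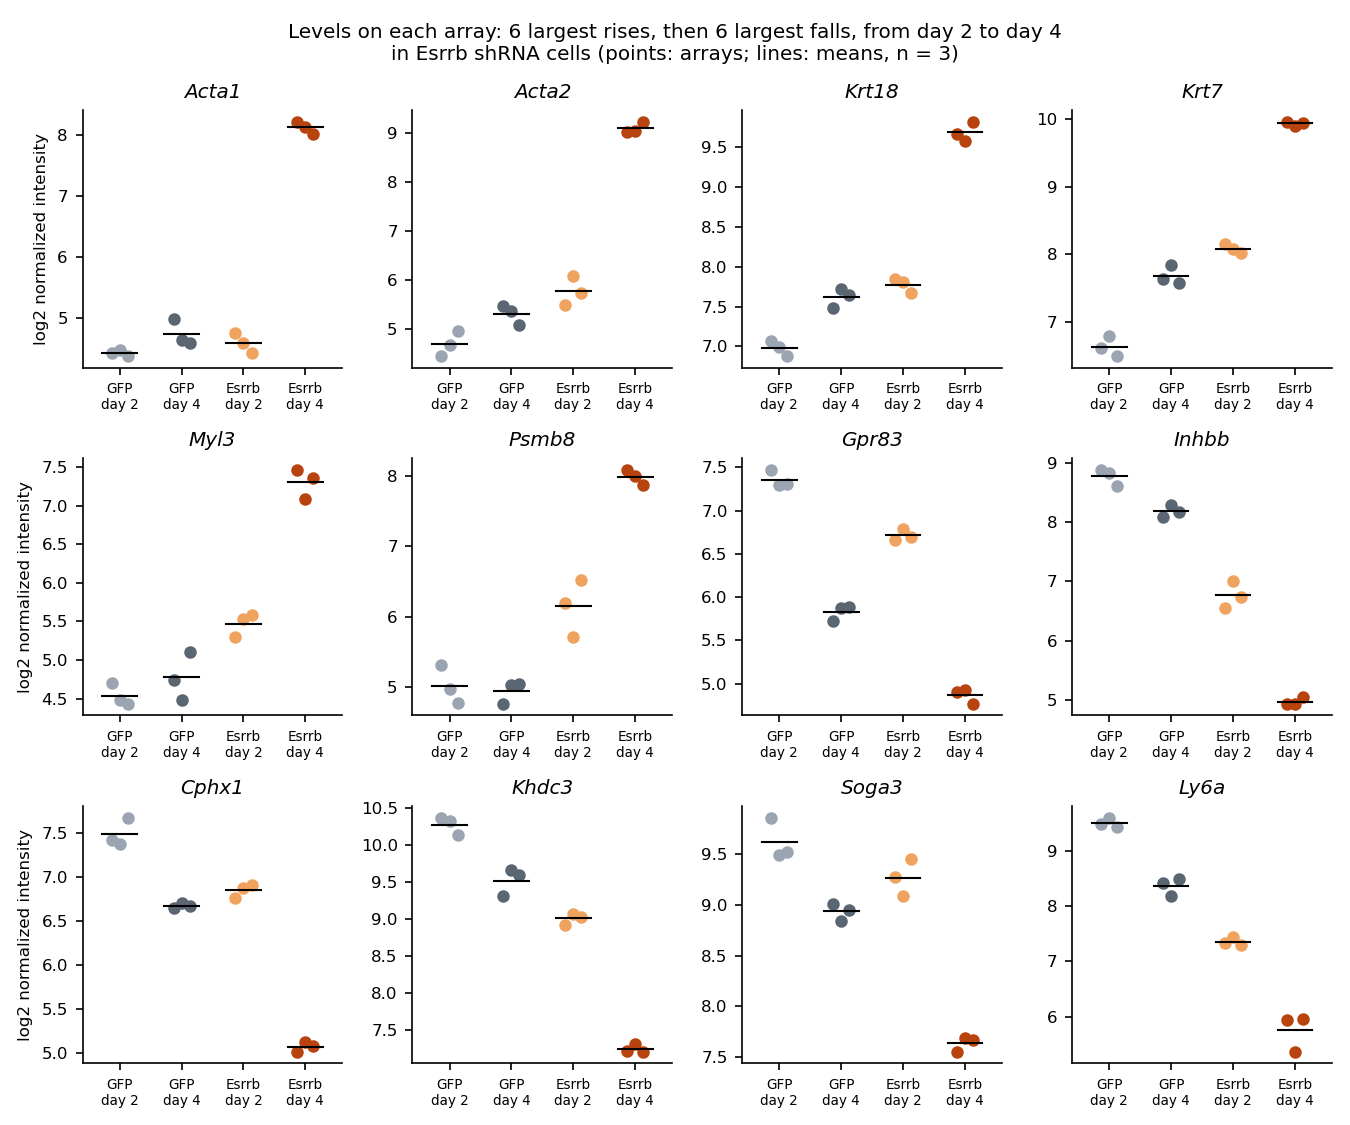
Log2 normalized intensity of the genes with the 6 largest fitted rises and the 6 largest fitted falls from day 2 to day 4 in Esrrb shRNA cells, among genes that met the naming rule, one point per array and a line at each mean of 3. Knockdown arrays of day 4 (dark red) lie apart from those of day 2 (orange) for all 12 genes, which the naming rule required. The control arrays (greys) show that the 6 falling genes fell there as well.

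Among the genes that fell most were those of a receptor, an activin subunit and an early embryonic protein. Gpr83, a G protein-coupled receptor gene, went from 6.66, 6.78 and 6.70 to 4.90, 4.93 and 4.77, below detection on all day 4 arrays, and was at least 3.27-fold lower (limma adjusted p = 1.01e-09). Its second probe stayed at -0.005, so the mean of both gave -0.93 (adjusted p = 1.44e-06). Inhbb, which encodes the beta B subunit of activins, went from 6.55, 7.0 and 6.74 to 4.93, 4.93 and 5.05, detected on 1 of 3 day 4 arrays. Its day 4 levels lay at the detection floor, and against that floor it was at least 3.37-fold lower (adjusted p = 3.1e-09). Khdc3, which encodes a KH domain protein of oocytes and embryonic stem cells, went from 8.93, 9.07 and 9.03 to 7.21, 7.31 and 7.21 (-1.77, SE 0.11). No day overlapped for the 3 genes, as the rule for the largest falls required. Control cells fell too for all 3, by 1.53, 0.59 and 0.76. The fall was larger in knockdown cells for Inhbb (adjusted p = 0.000174) and for Khdc3 (difference -1.01, adjusted p = 0.000615), while for Gpr83 the difference did not pass (adjusted p = 0.297).

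The other large falls were those of the homeobox gene Cphx1 (-1.78), Soga3 (-1.63), the surface antigen gene Ly6a (-1.60), the zinc finger factor gene Wt1 (-1.56) and the glutathione transferase gene Gsta3 (-1.53). Aard (-1.39), the aldo-keto reductase gene Akr1b8 (-1.37), the adhesion molecule gene Esam (-1.36) and Pcolce, an enhancer of procollagen processing (-1.36), followed. Smyd1, a muscle histone methyltransferase gene (-1.35), Mmd2 (-1.35) and the adenylate kinase gene Ak7 (-1.34) closed the 15 largest among genes that met the naming rule, which leaves out clone and locus names and the targets whose names start with MTDNA. Their standard errors were 0.09 to 0.14, and days did not overlap for any, as the rule required. Control cells fell for all of these except Gsta3 (-0.15) and Pcolce (-0.01), which did not pass there. Gsta3 stood at 9.36, 9.22 and 9.06 and then at 7.64, 7.62 and 7.80 in knockdown cells, against 9.62, 9.83 and 9.77 and then 9.62, 9.48 and 9.67 in control cells. The difference between the arms did not pass for Ly6a, Esam and Smyd1 (adjusted p = 0.155, 0.0598 and 0.115). With the mean of all probes Smyd1 was at -0.62 and Soga3 at -1.02, and without background correction Inhbb, Cphx1 and Gpr83 were at -1.03, -1.04 and -1.05. These calls were kept.

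Of 17 tested members of the naive pluripotency list 11 fell (64.7%, against 8.63% falls among all genes tested), 1 rose and 5 did not pass, with a median of -0.40. In control cells the same list had 2 falls and 1 rise, with a median of -0.07. Mras, a Ras-related GTPase, went from 10.40, 10.45 and 10.52 to 9.24, 9.28 and 9.28 (-1.19, SE 0.12, limma adjusted p = 6.87e-07). The Krüppel-like factor gene Klf4 went from 7.96, 8.19 and 8.03 to 7.12, 7.06 and 6.86 (-1.04, SE 0.11), and Tfcp2l1, a transcription factor that works beside Esrrb, from 11.39, 11.32 and 11.39 to 10.49, 10.40 and 10.49 (-0.91, SE 0.09). Arrays of the 2 days did not overlap for any of them. Tbx3, Tcl1, Jam2, Gbx2, Manba and Laptm5 fell by 0.34 to 0.99 in log2, and Nanog and Fgf4, described below, completed the falls. The differences between the arms passed for 7 members: 6, among them Tfcp2l1 (-0.72, adjusted p = 0.00129), Gbx2 and Manba, were more negative in knockdown cells, and Dppa3 was more positive. For Klf4 (-0.39, adjusted p = 0.159) and Mras (-0.55, adjusted p = 0.0659) the difference did not pass, and both fell in control cells as well.

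Dppa3, also called Stella, a maternal factor and germ cell marker, was the member that rose. Its levels were 8.17, 8.18 and 8.06 at day 2 and 9.06, 9.07 and 9.05 at day 4 (0.92, SE 0.08, limma adjusted p = 1.35e-07). Control cells held 7.84 to 8.03 throughout, and the difference was 0.90 (adjusted p = 8.11e-05). Klf2 (0.12), Klf5 (-0.22), Zfp42 (-0.30), Nr5a2 (-0.15) and Pecam1 (-0.06) did not pass.

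The core factor genes had small changes. Pou5f1, which encodes Oct4, gave 12.50, 12.55 and 12.54 at day 2 and 12.55, 12.31 and 12.47 at day 4, and its change of -0.09 did not pass (limma adjusted p = 0.568). Averaged over both probes it was at -0.16, and without day 4 array 1 or 2 at -0.14 or -0.02. Nanog gave 12.51, 12.74 and 12.66 and then 12.14, 12.46 and 12.28 (-0.34, SE 0.10, adjusted p = 0.018). The Nanog call was lost in 7 of 13 alternatives, with adjusted p up to 0.228. Its other 2 probes changed by -0.14 and 0.06. Sox2 gave 8.0, 7.97 and 7.84 and then 8.32, 8.24 and 8.26 (0.34, SE 0.09, adjusted p = 0.0141), but its second probe changed by -0.28, and the mean of both was at 0.03 (adjusted p = 0.912). Its call was also lost without day 2 array 3 or day 4 array 1 (adjusted p = 0.0677 and 0.0575). No direction is therefore given for Sox2 across its probes. For Pou5f1, Nanog and Sox2 the change did not differ between the arms by the test (adjusted p = 0.489, 0.541 and 0.518).

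In the general pluripotency list 6 of 17 fell, with a median of -0.13, close to that of control cells (-0.17, 5 falls and 0 rises). Sox2 was counted as the 1 rise, by its brighter probe only. Mybl2, a cell cycle transcription factor gene, fell by 0.49 (SE 0.09, limma adjusted p = 0.000474), from 9.99 to 10.14 down to 9.52 to 9.67. Trim28, a co-repressor of retroelements, fell by 0.34, and Dppa2, a chromatin factor of early embryos, by 0.63. Utf1 and Zscan10 fell by 0.30 and 0.37 in log2. No member's change differed between the arms. The Dppa2 call was lost with median centring (-0.59, adjusted p = 0.0523) and without day 2 array 2 or day 4 array 1 (-0.50 and -0.56), and that of Trim28 with median centring (adjusted p = 0.068).

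**Figure D3:**
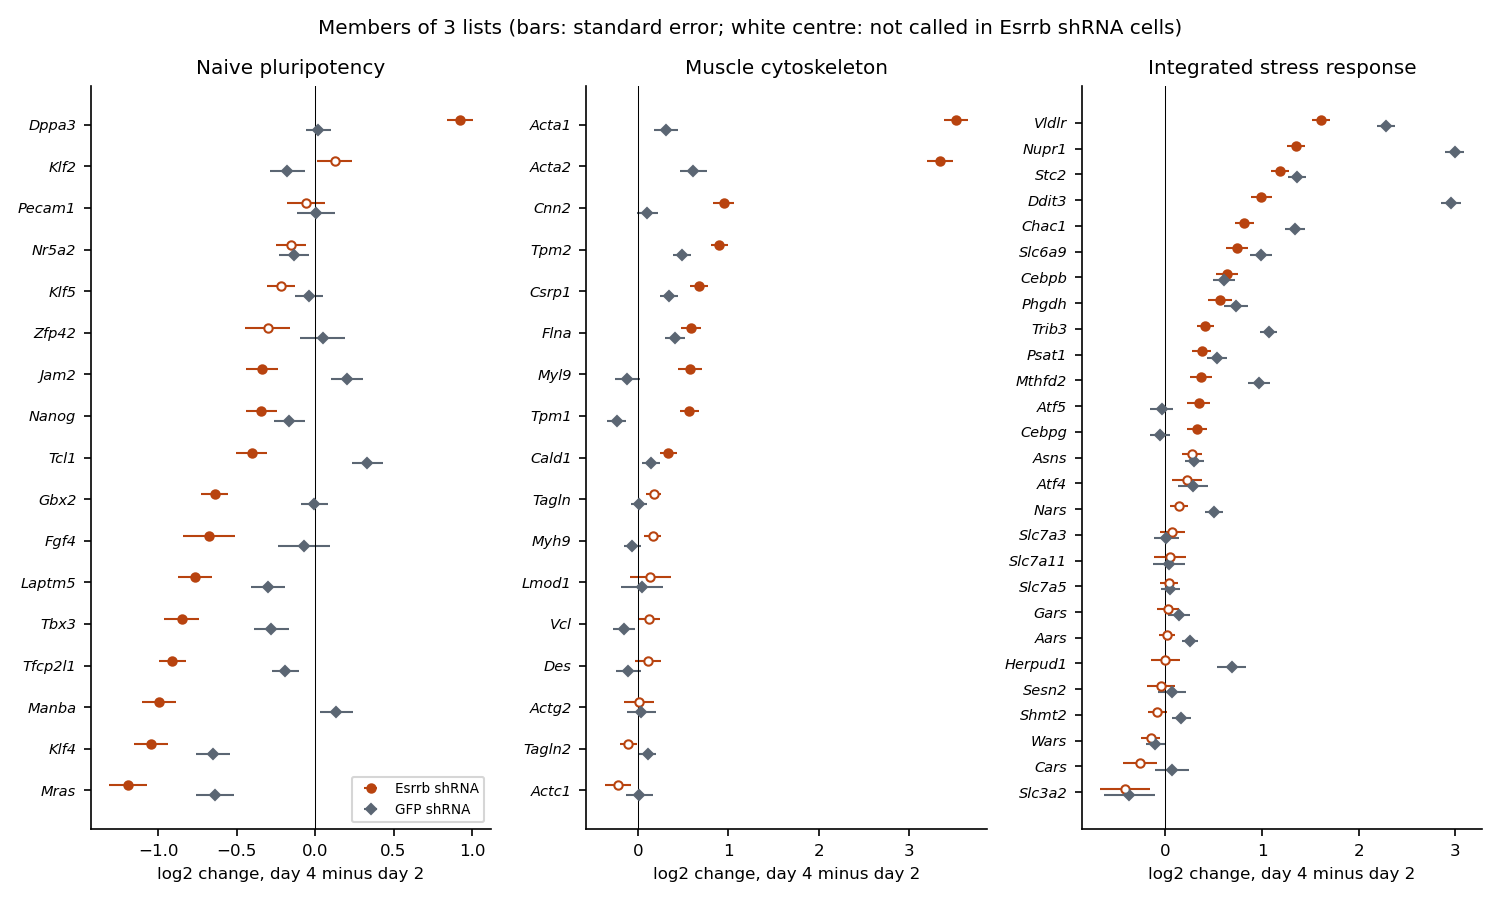
Log2 change from day 2 to day 4 of each tested member of 3 lists, in Esrrb shRNA cells (circles) and GFP shRNA cells (diamonds), with standard errors as bars and white centres for members not called in knockdown cells. In the naive list 11 members lie below 0 and are called, in the muscle list Acta1 (a fitted value with day 2 below detection) and Acta2 stand far to the right, and in the stress list Nupr1 and Ddit3 moved further in control cells.

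LIF acts through the kinase Jak1 and the factor STAT3, and of 18 members of that pathway 4 fell and 1 rose (27.8% called, against 19.5% of all genes tested, median -0.08). Jak1 stood at 8.82, 8.83 and 8.70 and then at 9.43, 9.44 and 9.36 (0.63, SE 0.10, limma adjusted p = 0.00012), as in control cells (0.58), but a dimmer probe changed by -0.27 and the mean of both was 0.18 (adjusted p = 0.382). Ccnd3, a D-type cyclin (-0.64), Bcl3, a nuclear partner of NF-kappaB (-0.68), Myc, a growth-promoting factor (-0.62), and Fos (-0.54) fell. The Ccnd3 difference between the arms passed (-0.54, adjusted p = 0.0346). Myc was at -0.40 without day 4 array 1 (adjusted p = 0.15), at -0.53 with median centring (adjusted p = 0.0644), at -0.55 without day 2 array 3 (adjusted p = 0.0788) and lost its call without the filter too (adjusted p = 0.0679). Without background correction it was at -0.35 (adjusted p = 0.0202).

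FGF4 drives ERK signalling in these cells, and genes that ERK induces report on it. Of 18 tested members of this list 5 fell (27.8%, against 8.63% of all genes) and 1 rose (median -0.07). In control cells 3 fell and 1 rose (median -0.08). By the test of the difference 2 members were more positive and 2 more negative in knockdown cells. Etv4, an ETS factor gene induced by ERK, went from 10.36, 10.27 and 10.13 to 9.51, 9.53 and 9.38 (-0.78, SE 0.11, limma adjusted p = 3.61e-05), and Spry4, a feedback inhibitor, from 9.73, 9.69 and 9.62 to 9.39, 9.17 and 9.27 (-0.41, SE 0.09). Neither overlapped between days, and both differed from control cells, where they were at 0.15 and 0.19 (differences -0.93 and -0.59, adjusted p = 0.0011 and 0.00955). Fgf4 itself fell by 0.68 (SE 0.17) and Fgf15, another ligand, by 0.61, and neither difference passed (adjusted p = 0.154 and 0.177). Fgfbp1, which carries FGFs, fell by 0.51, less than in control cells by the test of the difference, and Fgf5 was the 1 rise. The Fgf15 call was lost with median centring (adjusted p = 0.0534).

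In the BMP pathway 5 of 18 fell (27.8%, against 8.63% of all genes) and 1, the ligand gene Bmp7, rose by 0.38 (median 0.04). In control cells 4 fell and 1 rose (median -0.08), and the test of the difference between the arms passed for 1 member. Bmp4, a ligand that supports self-renewal together with LIF, went from 7.67, 7.65 and 7.81 to 6.87, 6.93 and 6.87 (-0.82, SE 0.09, limma adjusted p = 1.31e-06). Control arrays stayed between 9.32 and 9.53, and the difference was -0.72 (adjusted p = 0.00159). The second probe of Bmp4 was undetected, and with it the mean change was -0.45. The BMP target genes Id1 and Id3, inhibitors of differentiation, fell by 0.37 and 0.29, as in control cells (-0.31 and -0.49), and Id1 lost its call without day 2 array 2, day 2 array 3 or day 4 array 2 (adjusted p = 0.061, 0.0587 and 0.0625). The BMP antagonist genes Chrd and Grem1 fell, Chrd by 0.61 and Grem1 to below detection, at least 1.22-fold.

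Of 16 Nodal and activin members 2 rose and 2 fell (25.0% called, against 19.5% of all genes, median 0.06). Besides Inhbb, Pcsk6, a convertase that matures Nodal, fell by 0.45 (SE 0.09), or by 0.22 with the mean of its probes (adjusted p = 0.105). Lefty2, a Nodal antagonist, went from 10.14, 10.08 and 10.26 to 10.71, 10.69 and 10.68 (0.53, SE 0.09, limma adjusted p = 0.00028), and control arrays lay between 9.98 and 10.21 on both days. Of 15 Wnt and primitive streak members 1 rose and 2 fell (median -0.09), and the 20.0% called is near the 19.5% of all genes. Evx1, a homeobox gene of the streak, and Sp5, a Wnt target, fell by 0.97 and 0.59, and in control cells by 1.02 and 0.79. Wnt8a, a ligand gene, rose by 0.59 on its main probe, which was detected on 0 of 6 control arrays, while a second probe of equal level changed by 0.13 and the mean of both was at 0.36 (adjusted p = 0.0512).

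Primed epiblast genes changed in 4 of 10 tested members, 3 of which rose (median 0.16; 3 rose and 1 fell in control cells, median -0.10). Otx2, a homeobox factor of the epiblast, went from 8.42, 8.42 and 8.37 to 9.53, 9.48 and 9.58 (1.13, SE 0.10, limma adjusted p = 2.15e-07). It rose in control cells as well, by 0.43, and the difference was 0.70 (adjusted p = 0.00687). Zic2, a zinc finger factor gene detected on 2 of 3 day 2 arrays, rose by 0.81 (0.41 without background correction). It rose in control cells too, by 0.65, where it was detected on 1 of 3 day 2 arrays. Fgf5, an epiblast ligand gene, rose by 0.42 (adjusted p = 0.0486) with overlapping arrays, 5.52, 6.18 and 5.83 against 6.15, 6.30 and 6.33, and lost its call in 8 of 13 alternatives; without day 2 array 1 it was at 0.26 (adjusted p = 0.256). The forkhead factor gene Foxa2, of endoderm and streak, fell by 0.46 and lost its call in 5 alternatives (adjusted p up to 0.0947), and was at -0.24 without background correction (adjusted p = 0.0485).

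Of 10 DNA methylation enzymes 3 fell and 0 rose (median -0.19, control -0.16). Tet2, which oxidises methylcytosine, went from 10.53, 10.49 and 10.49 to 9.73, 9.92 and 9.87 (-0.66, SE 0.17). Dnmt3l, a cofactor of de novo methylation, fell by 0.45 but lost its call in 6 alternatives (adjusted p up to 0.073). Gadd45a, a stress gene linked to demethylation, fell by 0.49, and its change differed from control cells (-0.68, limma adjusted p = 0.00365).

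In the trophectoderm and placenta list, which holds the 3 keratins, 9 of 18 members rose and 5 fell (median 0.24; in control cells 2 rose, 3 fell and the median was -0.02). The test of the difference passed for 7 members, all more positive in knockdown cells. Rhox9, a homeobox gene of placenta and germ line, went from 8.98, 9.01 and 9.02 to 10.08, 10.13 and 10.16 (1.12, SE 0.10, limma adjusted p = 8.88e-08), while control arrays stayed within 8.07 to 8.37. Tfap2c, Krt19, Rhox6 and Lgals1 rose by 0.38 to 1.05. Krt19 did so with overlapping arrays, 5.13, 5.36 and 5.24 against 6.14, 6.15 and 5.31. The transcription factor genes Gata2, Gata3, Tfap2a, Ascl2 and Ets2 fell by 0.33 to 0.63 in log2, and Tead4, a partner of YAP, completed the rises. Of 6 measured trophoblast markers, Elf5, Hand1 and Tpbpa were detected on 0 of 6 arrays. Cdx2 and Gata3 were detected on all 6, with Cdx2 at 6.738 to 6.928 at day 2 and 6.745 to 7.009 at day 4. Plac1 was detected on 0 of 3 arrays at day 2 and on 2 of 3 at day 4. The summed level of the 6 markers was 385.1 to 453.2 at day 2 and 341.7 to 373.6 at day 4. The list's median was 0.07 without the filter on dim probes and 0.38 with the stricter one.

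Endoderm genes rose in 7 of 18 members and fell in 2 (median 0.20), with the same median in control cells, where 5 rose and 0 fell. With the 3 members below detection at 1 or both days at their bound the median was 0.13. Col4a2 and Col4a1, the collagen IV chains of basement membranes, rose by 0.86 (SE 0.10, limma adjusted p = 4.12e-06) and 0.60, and Dab2, an endocytic adaptor of primitive endoderm, by 0.44. Ttr, which encodes the thyroid hormone carrier transthyretin, was undetected at day 2 (4.42, 4.36 and 4.47) and detected on all arrays of day 4 (5.19, 5.12 and 5.25), at least 1.10-fold higher, and stayed at 4.33 to 4.46 in control cells. Gata4 and Amn rose by 0.44 and 0.31, and Lamc1 and Foxa2 fell by 0.32 and 0.46. Sox17, counted among the rises, was detected on 0 of 3 arrays at day 2 (4.54, 4.53 and 4.51) and on 1 of 3 at day 4 (4.98, 4.87 and 4.78), at or under the detection floor, so no fold is given. Dab2 was at 0.28 with the mean of its probes. The summed level of 6 primitive endoderm markers, of which Dab2 was the brightest, went from between 708.4 and 820.1 to between 895.9 and 955.6. In control cells the sum went from 567.6 to 633.5 up to 668.2 to 775.2. The markers moved both ways, since Foxa2 fell while Dab2 and Gata4 rose. Gata6 stood at 6.663 to 6.759 at day 2 and at 6.483 to 6.561 at day 4, which did not pass. Sox7 was detected on 0 of 6 arrays.

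Neural genes fell in 3 of 11 members and rose in 1 (median -0.02). Stmn2 and Stmn3, stathmin proteins that destabilise microtubules, went down: Stmn2 from 10.05, 9.82 and 10.04 to 9.27, 9.14 and 9.21 (-0.76, SE 0.11), and Stmn3 by 1.03 (-0.61 without background correction). Both changes differed from those of control cells (differences -1.02 and -0.91, limma adjusted p = 0.000575 and 0.00661). Zfp521, a zinc finger factor gene, rose by 0.79 (0.48 without background correction). Ncam1, an adhesion molecule gene, fell by 0.48, as in control cells (-0.53), and lost its call in 4 alternatives (adjusted p up to 0.0701).

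Fibroblast and mesenchymal genes rose in 2 of 15 members and fell in 5 (median -0.05). Cxcl12, described above, and Fn1, which encodes fibronectin (0.56), rose. S100a6, a calcium-binding protein gene, Vim, which encodes vimentin, and Thy1, a surface antigen gene, fell by 0.63, 0.63 and 0.46, and Zeb1 by 0.46. The Thy1 difference between the arms passed (-0.69, limma adjusted p = 0.00492). Of 8 fibroblast markers, the collagen genes Col1a1, Col1a2 and Col3a1 and Lum were detected on 0 of 6 arrays. Thy1 and Pdgfrb were detected on all 6, and Postn on 1 of 3 arrays at each day. The summed level of the 8, of which Thy1 was the brightest, was 418.2 to 450.8 and then 352.0 to 389.1. Dcn, also counted among the falls, was tested on a probe detected on 3 of 3 arrays at day 2 and on 0 of 3 at day 4, at least 1.13-fold lower. A second Dcn probe, which did not meet the filter, was detected on 1 of 3 and then 2 of 3 arrays, at levels of 4.639 to 5.144 and 4.864 to 5.104 that overlap.

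Hippo and YAP targets rose in 6 of 12 members and fell in 1, with a median of 0.36, against 2 rises, 3 falls and a median of -0.26 in control cells. Axl, a receptor kinase gene, went from 6.12, 6.49 and 6.48 to 7.0, 7.10 and 7.10 (0.70, SE 0.13, limma adjusted p = 0.000462). Tead4, a DNA-binding partner of YAP, rose by 0.60 (0.40 without day 4 array 3, 0.31 without background correction), the kinase gene Nuak2 by 0.46, and Amotl1, an angiomotin, by 0.35. The matricellular protein gene Ccn1 and Crim1 rose by 0.38 and 0.39, while the better known target Ccn2 fell by 0.47, less than in control cells (-1.16). In 4 of the 12, Ccn1, Ccn2, Tead4 and Crim1, the change was more positive than in control cells. The list's median was 0.21 without background correction and 0.17 without the filter.

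Epithelial junction genes rose in 5 of 17 members and fell in 1 (median 0.09, control -0.01). Cldn7, a claudin of tight junctions, was undetected at day 2 (4.43, 4.63 and 4.34) and stood at 5.95, 5.75 and 5.84 at day 4, at least 1.74-fold higher (limma adjusted p = 1.02e-06), with control arrays at 4.37 to 4.70. Cldn3 also went from undetected to detected, at least 1.46-fold higher. Cldn4 rose by 0.59 and Pkp2, a plakophilin of desmosomes, by 0.37 (0.21 with the mean of its probes, adjusted p = 0.0676), both much as in control cells (0.41 and 0.40). Dsg2 rose by 0.34 and Jup fell by 0.31. In the basement membrane and integrin list 1 of 17 rose and 1 fell (median -0.12): Lamb3, a laminin chain, rose by 0.53 (0.27 without background correction) and the integrin gene Itga3 fell by 0.70. Lamb3 was detected on 1 of 3 day 2 arrays, and against the detection floor it was at least 1.25-fold higher at day 4.

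Imprinted genes, which are expressed from 1 parental allele, rose in 5 of 18 members and fell in 5 (median 0.21; in control cells 2 rose and 5 fell). The neighbours Igf2, a growth factor gene, and H19, a noncoding RNA, rose together. Igf2 went from 10.71, 10.74 and 10.51 to 11.68, 11.41 and 11.50 (0.87, SE 0.12, limma adjusted p = 2.48e-05) and H19 from 10.64, 10.49 and 10.88 to 11.38, 11.44 and 11.45 (0.75, SE 0.13). Both fell in control cells, by 0.63 and 0.44, so the differences were 1.50 and 1.19 (adjusted p = 2.52e-05 and 0.000589). Cdkn1c, an inhibitor of cyclin-dependent kinases, went from 11.29, 11.12 and 11.23 down to 10.15, 10.08 and 10.18 (-1.08, SE 0.10), while control arrays stayed within 9.99 to 10.37. By day 4 its knockdown level lay in the range of the control cells. Dlk1 fell by 0.76, Igf2r, Ndn and Gnas rose by 0.36 to 0.64, and Mest, Phlda2 and Slc38a4 fell by 0.29 to 0.45 in log2.

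**Figure D4:**
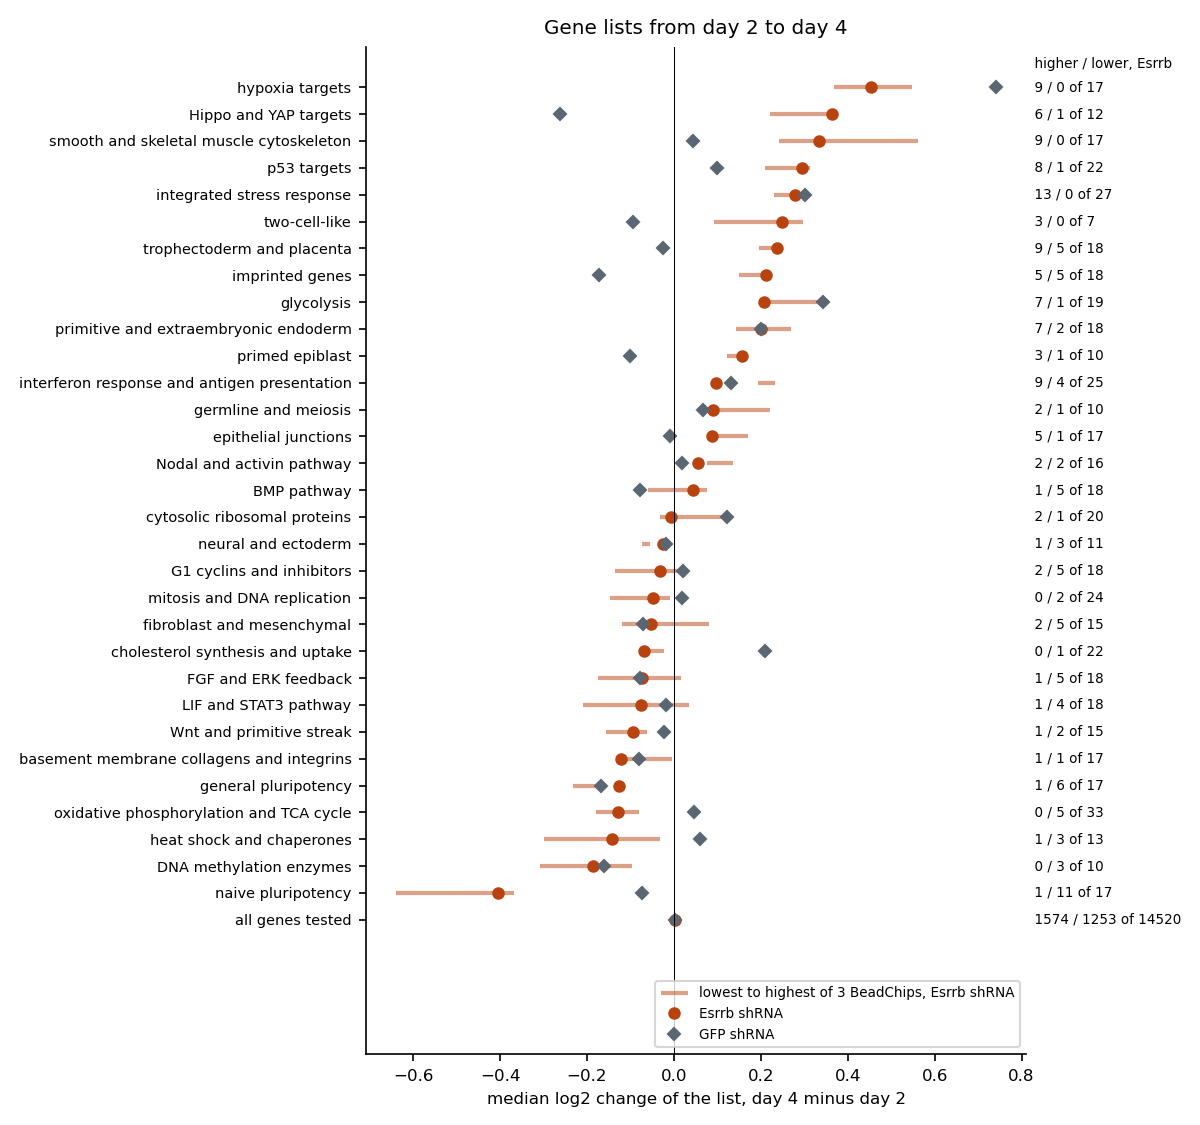
Median log2 change from day 2 to day 4 of 31 gene lists and of all genes tested, in Esrrb shRNA cells (circles) and GFP shRNA cells (diamonds), with bars from the lowest to the highest list median over the 3 BeadChips, which need not enclose the median of the fitted changes. The naive pluripotency list is lowest at -0.40, the muscle (0.16 with undetected members at their bound) and Hippo lists lie at 0.34 and 0.36 in knockdown cells against 0.04 and -0.26 in control cells, and the hypoxia list is highest in both arms.

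Hypoxia targets rose in 9 of 17 members and fell in 0 (median 0.45), and in control cells 10 rose and 2 fell (median 0.74). Car12, a carbonic anhydrase gene, went from 6.90, 6.66 and 6.82 to 7.98, 8.0 and 8.03 (1.21, SE 0.11, limma adjusted p = 2.15e-07). P4ha1, a collagen prolyl hydroxylase gene, Vegfa, the vascular growth factor gene, and Ndrg1 rose by 0.82, 0.71 and 0.66, and in control cells by 0.88, 1.11 and 0.74. P4ha2, Ankrd37, Adm, Ero1a and Ddit4 rose by 0.45 to 0.82. Egln3 was the 1 member whose change differed between the arms. Glycolysis genes rose in 7 of 19 members and fell in 1 (median 0.21), and in control cells 11 rose and 0 fell (median 0.34). The difference between the arms passed for 3 of the 19, 1 more positive and 2 more negative in knockdown cells.

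The glucose transporter genes Slc2a3 and Slc2a1 rose, from 13.41, 13.40 and 13.53 to 14.09, 14.00 and 14.13 (0.63, SE 0.08) and from 12.41, 12.36 and 12.45 to 13.02, 12.95 and 12.86 (0.54, SE 0.08). Slc2a1 was at 0.10 in control cells, and the difference passed (0.44, limma adjusted p = 0.0361). The glycolytic enzyme genes Aldoc and Pfkl rose by 0.62 and 0.53, with Aldoc rising more in control cells (1.14, difference -0.53, adjusted p = 0.0248). Tpi1, Eno2 and Pfkfb3 rose by 0.51 to 0.65, and the muscle enolase gene Eno3 fell by 0.60. Ldhb, a lactate dehydrogenase gene chosen after its values were seen, did not pass in knockdown cells (0.21, adjusted p = 0.231) and rose by 1.21 in control cells (difference -0.999, adjusted p = 0.000844).

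Among 33 genes of oxidative phosphorylation and the TCA cycle 5 fell and 0 rose (15.2% called, against 19.5% of all genes, median -0.13). In control cells 6 rose and 3 fell (median 0.05), and the test of the difference between the arms passed for 1 of the 33 members. The citrate synthase gene Cs went from 11.64, 11.85 and 11.60 to 11.33, 11.30 and 11.16 (-0.43, SE 0.11, limma adjusted p = 0.00946). Sdhd, a succinate dehydrogenase subunit gene, Mdh2, which encodes mitochondrial malate dehydrogenase, Ndufs3, of complex I, and Cox7b, of complex IV, fell by 0.46, 0.72, 0.33 and 0.58. Calls were lost in some alternatives for all of these but Cox7b, whose alternatives were not run: Cs without day 2 array 2 and without day 4 array 3 (adjusted p = 0.0583 and 0.0513), Sdhd without day 2 array 2 (0.0877) and with median centring (0.0885), and Mdh2 without day 2 array 2 and day 4 array 1 (0.0904 and 0.0963). Ndufs3 lost it in 5 (adjusted p up to 0.137), and was at -0.17 with the mean of its probes. Cholesterol genes were called in 1 of 22 members (4.55%, below the 19.5% of all genes), Srebf2, the regulator of sterol synthesis genes, which fell by 0.64 (-0.36 with the mean of its probes). In control cells 8 of the 22 rose and 1 fell, and for 3, Fdps and Msmo1 among them, the change was more negative in knockdown cells.

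The integrated stress response, which ATF4 runs when translation initiation is curbed, rose in 13 of 27 members and fell in 0 (median 0.28), and in control cells 15 rose and 0 fell (median 0.30). Nupr1, a stress-induced chromatin protein gene, went from 8.57, 8.54 and 8.48 to 9.90, 9.76 and 9.99 (1.35, SE 0.10, limma adjusted p = 7.2e-09). Ddit3, which encodes the factor CHOP, went from 7.26, 7.27 and 7.23 to 8.37, 8.12 and 8.24 (0.99, SE 0.11), and Stc2, a secreted stanniocalcin, rose by 1.18. Control cells rose further for Nupr1, from 7.80, 8.04 and 8.07 to 10.93, 10.99 and 10.96 (2.99), and for Ddit3, from 6.75, 6.85 and 6.64 to 9.78, 9.53 and 9.78 (2.95). Knockdown cells thus began higher at day 2 and ended lower at day 4, with no overlap between the arms. The differences were -1.64 and -1.96 (adjusted p = 5.82e-07 and 1.84e-07), and for Trib3, Chac1, Mthfd2 and Vldlr they passed in the same direction. Trib3, Atf5, Chac1, Psat1, Phgdh, Mthfd2, Slc6a9, Cebpb and Cebpg rose by 0.33 to 0.82 in knockdown cells.

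Heat shock and chaperone genes fell in 3 of 13 members and rose in 1 (median -0.14). Hspb1, a small heat shock protein gene, Hyou1, a chaperone of the endoplasmic reticulum, and Hspa5, which encodes BiP, fell by 0.37, 0.37 and 0.53, and Dnajb1, a co-chaperone gene, rose by 0.31. None of the 4 kept its call under every alternative: Hspb1 lost it in 2, Hyou1 in 3, Hspa5 in 6 and Dnajb1 in 7 of 13 (adjusted p up to 0.074, 0.0686, 0.236 and 0.0947), and Hspa5 was at -0.35 without day 2 array 2.

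The p53 targets rose in 8 of 22 members and fell in 1 (median 0.30, control 0.10). Trp53inp1, a promoter of autophagy and cell death, went from 11.50, 11.43 and 11.38 to 12.13, 12.19 and 12.20 (0.74, SE 0.10, limma adjusted p = 2.05e-05), as in control cells (0.73). The repair gene Ddb2 rose by 0.42 and Apaf1, which assembles the apoptosome, by 0.49. Plk3, a stress kinase gene, fell by 0.64. Ccng1, Eda2r, Pmaip1, Plk2 and Aen rose by 0.30 to 0.53.

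Among 24 cell cycle genes of S phase and mitosis 2 fell and 0 rose (8.33% called, against 19.5% of all genes, median -0.05). These were the ribonucleotide reductase gene Rrm2 (-0.37) and the replication licensing gene Cdc6 (-0.38). Rrm2 was at -0.08 with the mean of its probes (limma adjusted p = 0.618), and with median centring both calls were lost (adjusted p = 0.0598 and 0.127), as was that of Cdc6 without day 2 array 2 (0.0628). In the G1 list 5 of 18 fell (27.8%, against 8.63% of all genes) and 2 rose (median -0.03), and in control cells 3 rose and 0 fell. E2f2, a factor of S phase entry, went from 8.04, 8.07 and 8.14 to 7.28, 7.21 and 7.24 (-0.84, SE 0.10, adjusted p = 6.91e-06). The cyclin gene Ccnd2 went from 10.56, 10.35 and 10.82 to 9.84, 9.65 and 9.73 (-0.84, SE 0.11), and Ccne1 fell by 0.52. All 5 that fell, Ccnd2, Ccnd3, Ccne1, E2f2 and Cdkn1c, had a more negative change than control cells by the test of the difference. Genes that restrain the cycle moved both ways: Cdkn2a and Rb1 rose by 0.43 and 0.63, while Cdkn1c fell, as described above.

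Interferon response and antigen presentation genes rose in 9 of 25 members and fell in 4 (median 0.10), and in control cells 8 rose and 2 fell (median 0.13). Besides Psmb8, the immunoproteasome subunit gene Psmb9 rose by 1.12 (SE 0.16), from 5.86, 5.86 and 5.48 to 6.91, 6.79 and 6.83, and Tap2, of the peptide transporter, by 1.07. The transcription factor gene Irf1 rose by 0.69. Psmb9 and Irf1 rose in control cells as well (1.08 and 0.32), and Psmb8 was the 1 member whose change differed between the arms. Ifitm1, Ifitm3, B2m and Bst2 rose by 0.36 to 0.89, H2-K1 rose from below detection, at least 1.25-fold, and Irgm1, Rsad2, Eif2ak2 and Ddx58 fell by 0.46 to 0.68 in log2. B2m and H2-K1 form class I molecules, while Rsad2, Eif2ak2 and Ddx58 act against viruses, as Ifitm3 and Bst2 do. Psmb9 and Tap2 were at 0.71 and 0.60 without background correction. Of 4 blood markers, Ptprc and Lyz2 were detected on 0 of 6 arrays. Cd68 was detected on all 6, at 8.954 to 9.346 at day 2 and 8.963 to 9.164 at day 4. Hbb-b1 was detected on 1 of 3 and then 3 of 3 arrays. The summed level of the 4, of which Cd68 was the brightest, was 581.1 to 724.7 and then 581.0 to 657.1.

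The remaining lists were small. Of 10 germline genes 2 rose and 1 fell (median 0.09): Rec8, a meiotic cohesin gene, rose by 0.78, Ddx4, an RNA helicase gene of germ cells, by 0.50 (0.25 without background correction), and Taf7l fell by 0.33 but lost its call in 7 alternatives (limma adjusted p up to 0.22). Ddx4 was detected on 2 of 3 day 2 knockdown arrays. In control cells Ddx4 went from 0 of 3 to 3 of 3 arrays detected, at least 1.37-fold higher. Of 7 genes of the 2-cell-like state 3 rose and 0 fell (median 0.25), and in control cells 0 rose and 2 fell (median -0.09). Tmem92 went from 6.82, 6.63 and 6.93 to 7.55, 7.48 and 7.55 (0.74, SE 0.11, adjusted p = 7.47e-05), and Tcstv3 rose by 0.45. Both differed from control cells (0.69 and 0.62, adjusted p = 0.012 and 0.014). Zfp352 rose by 0.33 with overlapping arrays (adjusted p = 0.0492) and lost its call in 7 of 13 alternatives; without day 4 array 2 it was at 0.22. Of 20 cytosolic ribosomal protein genes 2 rose, Rpl22 (0.85) and Rplp0 (0.41, lost with median centring, adjusted p = 0.0625), and 1 fell, Rps19 (-0.57, or -0.29 with the mean of its probes), with a median of -0.01 and 15.0% called, against 19.5% of all genes.

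The largest differences between the arms also picked out genes outside these lists. Flt1, a receptor for vascular growth factors, rose from 5.60, 5.41 and 5.52 to 6.79, 6.87 and 6.37 (1.17, SE 0.15) and was at -0.14 in control cells (difference 1.31, limma adjusted p = 0.00116; the rise was 0.71 without background correction). Misp3 fell by 0.35 while control cells rose by 1.16, from 7.56, 7.65 and 7.49 to 8.79, 8.70 and 8.70 (difference -1.51, adjusted p = 2.49e-06). Its fall in knockdown cells lost the call in 4 alternatives, with adjusted p up to 0.155. Myo1f, an unconventional myosin gene, went from 8.04, 7.93 and 7.91 to 6.80, 6.77 and 6.53 (-1.26, SE 0.12), and Slc38a5, an amino acid transporter gene, from 7.74, 7.82 and 7.62 to 6.34, 6.47 and 6.53 (-1.28, SE 0.10). Neither passed in control cells (0.20 and 0.09), and the differences were -1.46 and -1.37 (adjusted p = 4.89e-05 and 6.26e-06). Apoc4, an apolipoprotein gene, fell by 1.06 (-0.58 without background correction) and was at 0.35 in control cells (difference -1.40, adjusted p = 0.00123).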

How the data were processed

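Total RNA of 18 samples was hybridised to Illumina MouseWG-6 BeadChips, 1 array per sample, with 6 groups of 3 replicates. The deposited table holds, per the file headers, unnormalized mean probe intensity from BeadStudio, a detection score for each probe and the number of beads (median 37). The authors also deposited normalized intensity values by probe, whose method is not given in the sources used here, and these served as an alternative. The array number limits the precision, and the median raw intensity was 60.4 to 76.9 over the 18 arrays, with 37.69 to 42.6% of probes detected.

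The intensities were background-corrected, quantile-normalized and log2-transformed with limma 3.58.1 in R 4.3.3 (neqc, offset 16, detection p taken as 1 minus the score). Of 46643 probes 268 controls were left out, among them ALKPHOS and CMVPROMOTER, which were added to the controls after their values were seen. A probe was kept where some group had detection p under 0.05 on each of its 3 arrays (19439 probes), and the probe with the highest mean stood for its gene. Target names were updated through RefSeq: 16079 of 34325 were current, 6654 matched a synonym and 11565 stayed as given.

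All 18 arrays entered a single limma fit with a mean for each of 6 groups, moderated two-sided tests and Benjamini-Hochberg adjustment. It gave the day 4 minus day 2 change in each arm and the difference between the arms. Replicate numbers pair the samples, since the headers show 1 BeadChip per number. The main fit held no term for this pairing, which entered as the block among the alternatives. Same-numbered arrays deviated together with r = 0.186, 0.16 and 0.111 in knockdown cells and with 0.276, 0.259 and 0.0214 in control cells. The scripts were tested on simulated data. Alternatives covered the background, the scaling, the filter, the probe choice, the block, the arrays in the fit and each array left out.

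The named genes comprise Esrrb with Nanog, Sox2 and Pou5f1, the top 15 rises and top 15 falls without overlap, up to 4 called members of each list by adjusted p, and the 8 largest differences between the arms in each direction. Other called list members are named together with their range, and some single members were chosen after their values were seen. Bounds against the detection floor, and list medians with undetected members at their bound, were added after the values were seen. The genes, lists and tests were chosen with earlier results of these data known. A few genes that meet these rules are counted but are not reported here.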

Additional observations from a re-analysis of the deposited data

Results flagged for a closer look

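For the following genes the change from day 2 to day 4 differed between Esrrb shRNA and GFP shRNA cells by the interaction test in limma (adjusted p under 0.05). Values are the knockdown change minus the control change in log2, with 3 arrays per group. The values of Acta1, Acta2, Cldn7, Ttr, Myl3, Psmb8 and Wnt8a are fitted values in which at least 1 day 2 or day 4 group was below detection on all 3 arrays, and day 4 knockdown arrays of Inhbb lay at the detection floor, so these are neither exact sizes nor bounds. Differences that lost their call with another setting are named in the part on processing.

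The difference was positive for cytoskeletal and keratin genes, with 3.21 for Acta1, 2.73 for Acta2, 1.6 for Myl3, 0.84 for Cnn2, 1.65 for Krt8, 1.28 for Krt18 and 0.81 for Krt7. Surface, junction and signalling genes followed with 1.21 for Cldn7, 1.31 for Flt1, 1.27 for Cxcl12, 0.48 for Lefty2, 0.61 for Wnt8a and 0.44 for Slc2a1. Among regulators and embryonic genes it was 1.16 for Rhox9, 0.94 for Tead4, 0.9 for Dppa3, 0.7 for Otx2, 0.69 for Tmem92 and 0.62 for Tcstv3. It was 1.91 for Psmb8, 1.5 for Igf2, 1.19 for H19 and 0.81 for Ttr.

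The difference was negative for stress genes, with -1.96 for Ddit3, -1.64 for Nupr1, -0.68 for Gadd45a and -0.67 for Vldlr. Cell cycle genes had -1.01 for Cdkn1c, -0.69 for E2f2, -0.68 for Ccnd2 and -0.54 for Ccnd3. Regulators and signalling genes had -1.2 for Inhbb, -1.09 for Wt1, -0.96 for Cphx1, -0.93 for Etv4, -0.72 for Tfcp2l1, -0.72 for Bmp4, -0.7 for Foxa2 and -0.59 for Spry4. Other genes had -1.51 for Misp3, -1.46 for Myo1f, -1.4 for Apoc4, -1.38 for Gsta3, -1.37 for Slc38a5, -1.35 for Pcolce, -1.09 for Akr1b8, -1.04 for Aard and -1.01 for Khdc3. The remaining values were -1.02 for Stmn2, -0.91 for Stmn3, -0.95 for Soga3, -0.74 for S100a1, -0.74 for Ak7, -0.71 for Mmd2, -0.69 for Thy1 and -0.53 for Aldoc.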

How the results depend on the processing

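Among the 139 genes named by rule no called change or difference reversed in any alternative run on them. For the differences these were the replicate block, median centring, no background correction and the mean of all probes. Other called genes were not checked for reversal. Differences that did not pass in the main fit were not followed in these alternatives. The 2827 genes called in knockdown cells became 2137 to 2357 with each array left out, and 3283 with the replicate block. The difference between the arms, 699 genes, became 474 to 820 with each array left out and 1034 with the replicate block. The block moved no count of calls by over 1.5 times. Control calls, 3399 genes, were 2220 with median centring and 1853 when only the arrays compared were fitted. Of the log2 changes of these named genes under alternatives 1697 kept their side of the threshold and 108 lost it, and of their called differences between the arms 209 and 19. Named differences lost with median centring were -0.523 for Vldlr, -0.588 for S100a1, -0.627 for Ak7, -0.423 for Ccnd3, -0.516 for Spry4, 0.568 for Lefty2, -0.598 for Foxa2, -0.604 for Gadd45a, -0.446 for Aldoc, 0.431 for Slc2a1, -0.584 for E2f2, -0.603 for Ccnd2 and 0.688 for Tcstv3. With all probes averaged they were -0.278 for Vldlr, -0.267 for Soga3, -0.272 for Bmp4 and 0.442 for Wnt8a, and without background correction 0.344 for Wnt8a and -0.376 for Foxa2. List medians in knockdown cells moved as follows with each array left out: Hippo 0.277 to 0.4, Nodal 0.035 to 0.091, Wnt -0.209 to -0.092, basement membrane -0.151 to -0.059, cholesterol -0.069 to -0.03, epithelial junctions 0.082 to 0.188, general pluripotency -0.234 to -0.102 and germline 0.021 to 0.147. Further such ranges were hypoxia 0.358 to 0.554, imprinted 0.189 to 0.232, integrated stress 0.248 to 0.311, interferon 0.084 to 0.173, neural -0.079 to 0.017, primed epiblast 0.123 to 0.23, endoderm 0.186 to 0.27, trophectoderm 0.193 to 0.345 and 2-cell-like 0.137 to 0.336. With median centring Wnt was at -0.035, cholesterol at -0.029, epithelial at 0.155, imprinted at 0.259, interferon at 0.18, neural at 0.055, primed at 0.192 and endoderm at 0.264. Without background correction Hippo was at 0.208, hypoxia at 0.251, interferon at 0.057, neural at -0.012, trophectoderm at 0.185 and 2-cell-like at 0.126. Without the filter Hippo was at 0.169, hypoxia at 0.319, imprinted at 0.137, integrated stress at 0.182, interferon at 0.033, neural at -0.012, endoderm at 0.106 and trophectoderm at 0.074. With the stricter filter interferon was at 0.07, neural at -0.057 and trophectoderm at 0.376. With all probes averaged epithelial was at 0.167, imprinted at 0.091, primed at 0.204 and trophectoderm at 0.208. The cause of these moves was not tested. The neural median changed sign with median centring and with some arrays left out, so it has no direction here. Signals near background understate changes of dim genes, and 3 arrays per group limit the precision.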

Other observations

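Besides AMPR, another 3 control probes left out of the tests were over 2-fold brighter at day 2 than at day 4 in both arms. The other 19, detected on all 3 arrays of some day 2 or day 4 group, had ratios of 0.883 to 1.094. Their group means on these days were 73.43 to 119.67 units, against array medians of 60.4 to 71.8. Signals this dim leave little room for a fall. ALKPHOS read 851.2, 975.8 and 1032.1 units of deposited intensity in knockdown cells at day 2 and 87.5, 96.7 and 101.3 at day 4. DTT7PRIMER_ANTISENSE read 718.5, 1065.2 and 915.0 and then 76.8, 94.2 and 102.4, and JEREMYREITER_BGALACTOSIDASE_40 read 219.8, 213.2 and 251.2 and then 74.7, 84.4 and 82.0. AMPR at day 6 read 118.6, 126.7 and 162.7 in knockdown cells, detected on 3 of 3 arrays, and 59.1, 70.9 and 73.1 in control cells, detected on 0 of 3.

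Targets named for mitochondrial genes, chosen after their values were seen, moved in both arms. MT-ND5 rose by 1.84 in knockdown cells and by 1.51 in control cells. MTDNA_ND6 rose by 2.04 and 2.56, and MTDNA_ND5 fell by 1.43 and 1.49. The targets named for ND5 thus went in opposite directions, and the difference between the arms did not pass for any of the 3 (limma adjusted p = 0.326, 0.222 and 0.869).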
